A study of Orbilia oligospora ATCC 24927 with 24 samples.

Results

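Transcripts of the nematode-trapping fungus Arthrobotrys oligospora (strain ATCC 24927) labelled as lacking AoPkaC1, which encodes a catalytic subunit of protein kinase A (PKA, the kinase that cAMP switches on), were compared with those of wild type hyphae after 12 h of trap induction. The comparison rests on 6 of the 24 libraries of the series, namely the 3 induced PkaC1 deletion libraries and the 3 induced wild type libraries of the same experiment, chosen by their sample titles. Of 11479 annotated genes, 8977 were tested, those that reached 1 TPM (the deposited unit of transcript abundance, scaled to the same total in every library) in 3 or more of this experiment's 12 libraries. Both strains were grown on potato dextrose agar and given nematode extract, a stand-in for live prey, for 12 h; the other 6 libraries of the experiment, 3 of the deletion strain and 3 of wild type, were taken untreated (0 h). No group without extract was sampled at 12 h, and the labels do not say whether the deletion strain is 1 transformant or several.

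In fungi, cAMP made by adenylate cyclase binds the regulatory subunit of PKA and frees its catalytic subunits, which phosphorylate transcription factors and metabolic enzymes. In baker's yeast the pathway favours growth and ribosome production while glucose is plentiful and holds back stress and alternative-carbon genes. In filamentous fungi it is also known for its part in conidiation and in the formation of infection structures, to which the adhesive networks of A. oligospora are related in function.

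Because TPM are shares, and the induced libraries of both strains differed in how those shares were spread, levels were scaled before they were compared. The 100 most abundant annotated genes held 48.9%, 48.2% and 50.8% of all TPM in the deletion libraries, against 38.1%, 38.4% and 37.8% in wild type. The median TPM of the tested genes was 13.4 to 14.6 in the deletion libraries and 19.3 to 19.4 in wild type. Each library was multiplied so that its tested genes had a median of 20.2, by factors of 1.38 to 1.51 in the deletion libraries and of 1.04 in wild type. Values below are scaled TPM unless deposited TPM are named, and log2 fold changes are of log2(scaled TPM + 1), deletion over wild type, which understates the change of low genes. The median log2 fold change over all tested genes was 0.00 after scaling and -0.39 in deposited TPM. A value after ± is the SE beside a log2 fold change and the SD beside a mean, with n = 3 libraries per group, and a gene is said to have risen or fallen where limma's adjusted p was under 0.05. Read depth cannot be had from TPM, and the libraries of a group are called biological replicates without naming separate cultures, so every p-value measures only the spread between libraries. The libraries are of whole hyphae, in which fewer cells of a kind and less RNA per cell cannot be told apart.

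Of the 8977 tested genes, 2852 rose (31.8%) and 2880 fell (32.1%) in the deletion libraries, 63.9% in all. At 2-fold or more the balance was uneven, with 1261 genes higher (14%) and 498 lower (5.55%), and 350 were at least 4-fold higher against 150 at least 4-fold lower. In deposited TPM 1697 genes were called higher (18.9%) and 4671 lower (52%), and at 2-fold or more 731 and 1407. Of the 2852 genes that rose, 98 were called lower in deposited TPM and 1057 were not called. Of the 1261 genes 34.6% had neither a Swiss-Prot match nor a Pfam domain, against 22.5% of the 498 and 25.0% of all tested genes. All 1261 had a positive value and all 498 a negative one in the authors' deposited table of the same comparison. In 35% of tested genes every deletion library lay above every wild type library, and in 35% below. The 3 wild type libraries lay closer together (Pearson r across genes 0.992 to 0.993) than the 3 deletion libraries (0.977 to 0.981). When the wild type libraries of a group were averaged into 1 and the spread taken from the deletion libraries alone, 2950 genes were called (32.9%), 1651 higher (18.4%) and 1299 lower (14.5%), among them 1538 of the 1759 changed at 2-fold or more (19.6% of tested genes). That fit assumes that a lone wild type library varies like the deletion libraries, whose spread is there pooled from the induced and the untreated ones. The p-values from it are given below as adjusted p with wild type as 1 library where a call ends. Counts of list members called in it stand beside these shares of all tested genes.

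**Figure D1:**
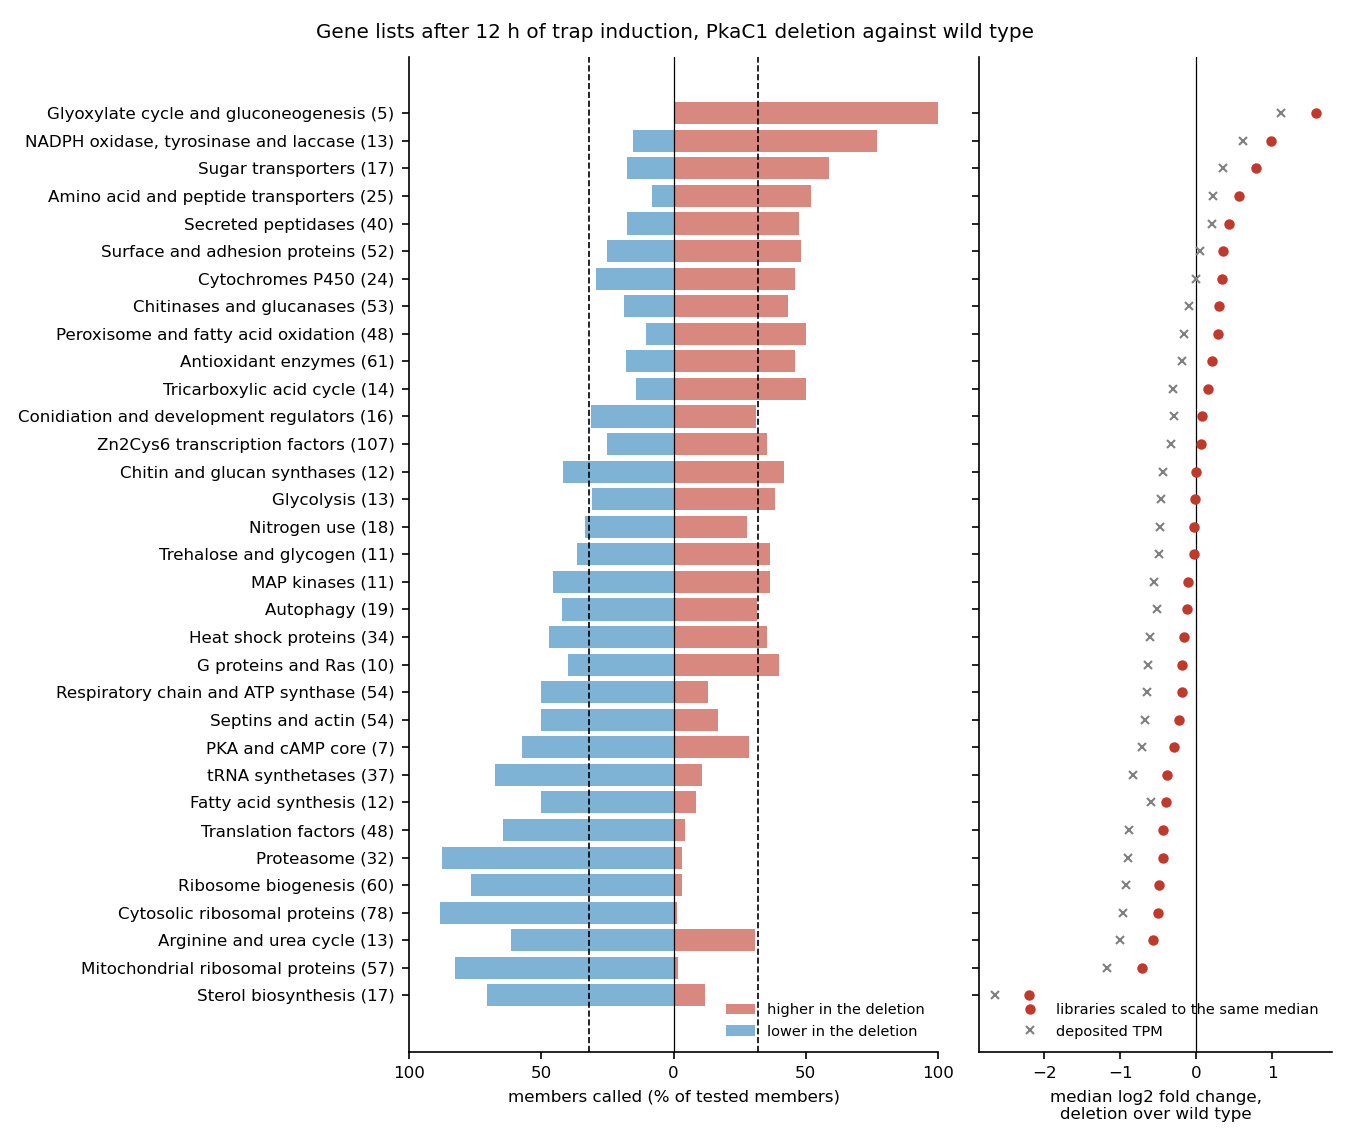
Left, the share of tested members of each gene list (number tested in parentheses) that rose (right of 0) or fell (left of 0) in the induced PkaC1 deletion libraries, with dashed lines at the shares of all tested genes, 31.8% and 32.1%. Right, the median log2 fold change of each list with libraries scaled to the same median (dots) and in deposited TPM (crosses); the glyoxylate list has the highest median and the sterol list the lowest on both scales.

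The genotype labels name an AoPkaC1 deletion and the deposited tables of this experiment are named for PKA, but the design text of the series speaks of a mutant of another gene, AorlmA. The strain is called the PkaC1 deletion here after its genotype label. The labels do not say which gene is AoPkaC1, and the annotation holds 2 genes with a PKA catalytic subunit match. AOL_s00043g480, matched to a type 2 catalytic subunit, was at 35.5, 34.4 and 37.9 in the deletion libraries, against 48.96, 56.8 and 51.6 in wild type (-0.53 ± 0.06 on the log2 scale, limma adjusted p = 2.61e-05). The other, AOL_s00078g405, was at 35.4, 33.4 and 39.3 in the deletion libraries, against 28.7, 25.5 and 26.9 in wild type (0.40 ± 0.07, adjusted p = 4.07e-04), but its log2 fold change was -0.05 in deposited TPM. Neither gene was near 0 in any deletion library, and the groups did not overlap for either. The authors' deposited table gives 0.22 and 0.46 for these genes, so AOL_s00043g480 has the opposite sign there. The expression values therefore neither identify the deleted gene nor serve as a check of the genotype label.

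Of the other genes of the cAMP pathway and of the G protein and Ras list above it, Ras-like protein 3 was the 1 called at 2-fold or more. The PKA regulatory subunit AOL_s00075g84, which holds the kinase inactive until cAMP binds, fell to 12.4, 11.5 and 17.3, against 20.2, 19.5 and 18.8 in wild type (-0.50, limma adjusted p = 0.00397, and 0.141 with wild type as 1 library). Adenylate cyclase (AOL_s00080g284) fell by a smaller amount, with 11.1, 12.7 and 11.2 in the deletion libraries and 14.1, 15.03 and 14.3 in wild type (-0.29, adjusted p = 0.0051, and 0.147 with wild type as 1 library). The phosphodiesterases, which break down cAMP, moved apart: AOL_s00097g378 fell (-0.50) and AOL_s00083g160 rose (0.28, but -0.17 in deposited TPM and adjusted p = 0.286 with wild type as 1 library). The call of AOL_s00083g160 also ended without deletion replicate 3 (adjusted p = 0.145) and without any 1 of the wild type libraries (0.0571 to 0.127). Among the G protein alpha subunits, which act above the cyclase, AOL_s00075g181 and AOL_s00075g14 fell (-0.53 and -0.38) and AOL_s00109g19 rose (0.48, but 0.03 and not called in deposited TPM, and adjusted p = 0.168 with wild type as 1 library). Ras-like protein 3 (AOL_s00078g202) had the largest rise of these signalling genes, at 16.7, 13.7 and 16.5 in the deletion libraries, against 6.48, 5.53 and 7.67 in wild type (1.14 ± 0.19, adjusted p = 3.11e-04). In all, 2 of the 7 genes of the PKA list rose and 4 fell (0 and 5 in deposited TPM, and 3 called with wild type as 1 library).

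The 10 genes with the highest mean level over the 6 induced libraries were higher in the deletion libraries. That mean includes the deletion libraries, so the choice favours genes that are high there. Their common direction is therefore no result about abundant genes in general. These 10 genes held 20.2%, 19.4% and 21.1% of deposited TPM in the deletion libraries, against 11.4%, 11.6% and 11.4% in wild type. All 10 rose, by 0.56 to 2.13 on the log2 scale, and 4 of them encode heat shock proteins; 5 of the 10 lost their call with wild type as 1 library. The most abundant, a 30 kDa small heat shock protein (AOL_s00112g95), was at 47919, 45182 and 52349 in the deletion libraries, against 32970.0, 32921 and 32712 in wild type (0.56 ± 0.20, limma adjusted p = 0.032). Its call ended with wild type as 1 library (adjusted p = 0.361), in deposited TPM (0.10) and when any 1 of the 6 libraries was left out (adjusted p = 0.0506 to 0.0916). A second 30 kDa heat shock protein, AOL_s00076g65, reached 43626, 41640.0 and 52051, against 18668, 18725 and 18460.0 in wild type (1.29 ± 0.25, adjusted p = 0.0999 with wild type as 1 library). The cytosolic chaperone Hsp70, which folds new and damaged proteins (AOL_s00215g255), had the largest change among the 4, with 29257, 28099 and 35942 in the deletion libraries and 8311, 8466 and 8396 in wild type (1.88 ± 0.22, adjusted p = 2.91e-05). The groups did not overlap for any of these genes.

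**Figure D2:**
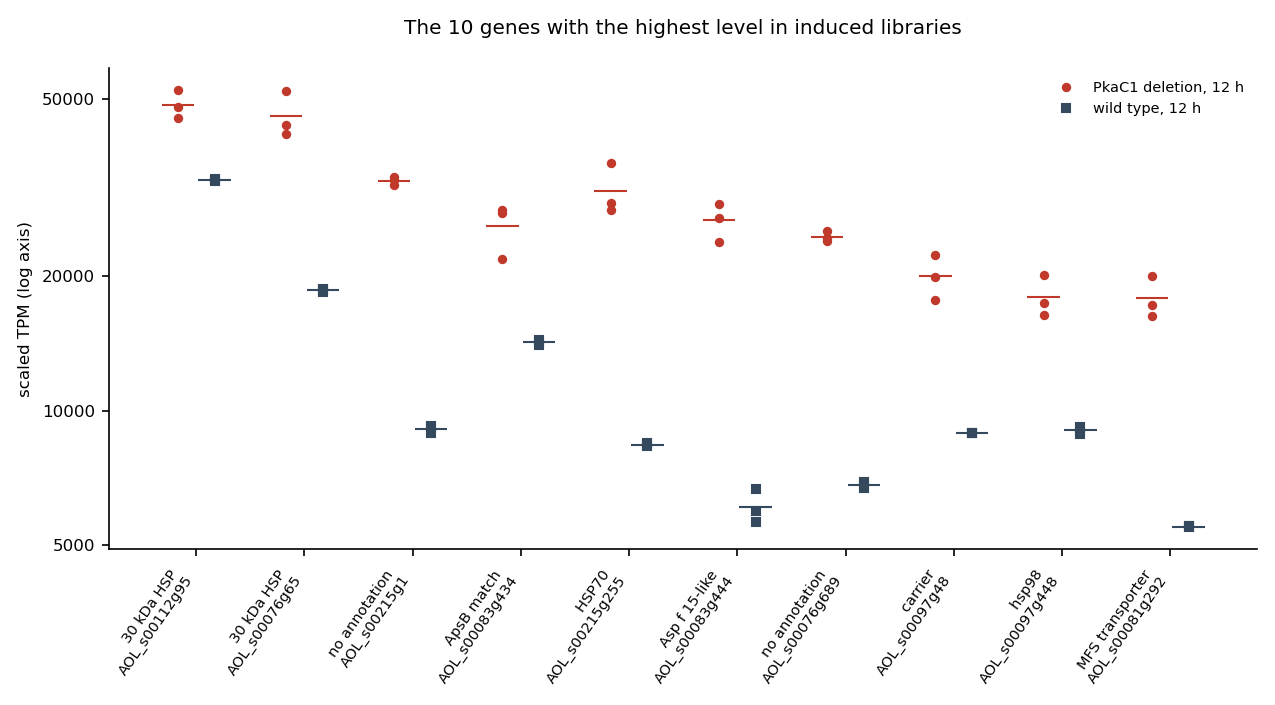
Scaled TPM (log axis) of the 10 genes with the highest mean level over the induced libraries, each point 1 library and each line a group mean, with the 3 PkaC1 deletion libraries left of the 3 wild type libraries. In each gene all deletion libraries lie above all wild type libraries. The mean used to pick the genes includes the deletion libraries, which favours genes that are high there.

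Other members of this abundant group have no known part in folding. AOL_s00083g444, a match to the allergen Asp f 15 of the cerato-platanin family of small secreted proteins, was at 27056, 23857 and 29086 in the deletion libraries, against 5636, 6677 and 5963 in wild type (2.13 ± 0.21, limma adjusted p = 7.02e-06). AOL_s00215g1 and AOL_s00076g689 carry no annotation and rose to nearly the same degree (1.85 ± 0.12 and 1.85 ± 0.12). The major facilitator transporter AOL_s00081g292 rose as well (1.69 ± 0.21). The match to a calcium-binding mitochondrial carrier (AOL_s00097g48, 1.16 ± 0.23) and that to sterigmata protein B (AOL_s00083g434, 0.85 ± 0.23), which in Aspergillus nidulans is needed for nuclear positioning, lost their calls with wild type as 1 library (adjusted p = 0.104 and 0.209); the second was also not called in deposited TPM (0.39).

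Within the heat shock list, chaperones of the Hsp90 and Hsp100 classes rose while chaperonin subunits fell. The list was made by name pattern and does not hold the Hsp70 gene AOL_s00215g255. Of 34 tested members 12 rose and 16 fell (median -0.16); in deposited TPM 7 rose and 22 fell, and 12 in either direction were called with wild type as 1 library. Hsp90 (AOL_s00083g179) was at 5392, 5424 and 6307 in the deletion libraries, against 2177, 2335 and 2181 in wild type (1.35 ± 0.15, limma adjusted p = 1.39e-05). Hsp88 (AOL_s00210g139) and the mitochondrial Hsp78 (AOL_s00173g116) rose by a like amount (1.47 ± 0.18 and 1.36 ± 0.22), and hsp98 by less (AOL_s00097g448, 0.99 ± 0.20, adjusted p = 0.102 with wild type as 1 library), a disaggregase of the ClpB family in Neurospora. A DnaJ cochaperone, AOL_s00097g305, had the highest value of the list (1.57 ± 0.10). On the other side stood subunits of the TCP-1 chaperonin, which folds actin and tubulin, with AOL_s00043g565 at -0.60 ± 0.08 and AOL_s00004g398 at -0.56 ± 0.05. The largest fall was in the small heat shock protein 16 (AOL_s00097g499), at 361, 407 and 449.5 in the deletion libraries and 679.6, 693 and 689.6 in wild type (-0.76 ± 0.08). The whole list took 8.86%, 8.73% and 9.58% of deposited TPM in the deletion libraries, against 6.77%, 6.80% and 6.74% in wild type.

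Most genes for making proteins were lower in the deletion libraries, by small amounts. Of 78 tested cytosolic ribosomal proteins 69 fell and 1 rose (median -0.50), and the list took 5.15%, 5.26% and 4.32% of deposited TPM in the deletion libraries, against 9.13%, 9.23% and 8.98% in wild type. Only 2 of the members that fell reached 2-fold: the stalk protein P2 (AOL_s00078g257, -1.46 ± 0.30, adjusted p = 0.0898 with wild type as 1 library), which recruits elongation factors to the ribosome, and the ubiquitin fusion S27a (AOL_s00075g220). The S27a gene was at 162, 152 and 168 in the deletion libraries, against 429.9, 388 and 410.4 in wild type (-1.34 ± 0.14, limma adjusted p = 1.05e-05). The 1 member that rose was S30-A (AOL_s00173g130, 0.66 ± 0.12, but 0.20 and not called in deposited TPM). The S27 gene AOL_s00079g258 had a lower value still (-1.52 ± 0.69) but did not pass (adjusted p = 0.0761), although it was called lower in deposited TPM (-1.97) and without deletion replicate 2 (-2.13, adjusted p = 0.0217). With wild type as 1 library 25 members were called (32.1%), near the 32.9% of all tested genes; 24 of them (30.8%) were lower, beside 14.5% of all tested genes.

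Among mitochondrial ribosomal proteins 47 of 57 were lower and 1 higher (median -0.71), 12 of the lower ones at 2-fold or more; 32 (56.1%), all lower, were called with wild type as 1 library. AOL_s00110g64, a protein of the large mitochondrial subunit, was at 3.53, 3.06 and 0.603 in the deletion libraries, against 69.4, 78.4 and 75.05 in wild type (-4.61 ± 0.35, adjusted p = 8.41e-07). Ribosome biogenesis had 46 of 60 members lower and 2 higher (median -0.49, with 17 called lower and 1 higher when wild type was 1 library), among the lower ones Ytm1 (AOL_s00076g75, -1.35 ± 0.08), which matures the large subunit in yeast. The largest subunit of RNA polymerase I, which transcribes ribosomal RNA (AOL_s00117g6), went the other way, with 163, 146 and 189 in the deletion libraries and 59.9, 60.2 and 60.5 in wild type (1.44 ± 0.17, limma adjusted p = 3.17e-05). Translation factors had 31 of 48 lower and 2 higher (median -0.44), and 15 did not pass. With wild type as 1 library 14 were lower and 1 higher. Elongation factor 3 (AOL_s00210g131), which fungal ribosomes need to release spent tRNA, fell to 282, 264 and 280.2, against 687, 667 and 658 in wild type (-1.28 ± 0.11). Initiation factor 6 (AOL_s00079g326), which keeps ribosomal subunits apart, rose to 2624, 2838 and 3306, against 1029.6, 1062 and 1035 in wild type (1.48 ± 0.14, adjusted p = 4.60e-06). Among aminoacyl-tRNA synthetases 25 of 37 fell and 4 rose (median -0.38), or 33 and 1 in deposited TPM, and with wild type as 1 library 12 were lower and 1 higher. The shares of ribosome biogenesis, translation factors and synthetases called in that fit, 30%, 31.3% and 35.1% in either direction, are near the 32.9% of all tested genes, and 28.3%, 29.2% and 32.4% of these lists were lower, beside 14.5%.

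The proteasome, which degrades ubiquitin-tagged proteins, was lower too, with 28 of 32 tested genes lower and 1 higher (median -0.44, 19 called with wild type as 1 library, 18 of them lower). Its largest fall was the ATPase subunit 7 of the regulatory particle (AOL_s00078g246), at 11.3, 12.6 and 8.05 in the deletion libraries and 56.98, 59.5 and 54.5 in wild type (-2.34 ± 0.12, limma adjusted p = 5.21e-08). The core subunits beta type-1 (AOL_s00054g807) and alpha type-5 (AOL_s00079g21) fell by less (-0.80 ± 0.07 and -0.73 ± 0.11). Autophagy genes, the other route of bulk degradation, were split, with 6 of 19 higher and 8 lower (median -0.11). Atg8 (AOL_s00007g534), the membrane mark of autophagosomes and the most abundant of them, was at 2039, 2087 and 1999 in the deletion libraries and 1733, 1796 and 1747 in wild type and did not pass the test (0.22 ± 0.10, adjusted p = 0.0909; called lower in deposited TPM, -0.25, and higher when only the compared groups were fitted, 0.22, adjusted p = 0.00278). Atg11 (AOL_s00004g301), a scaffold of selective autophagy in yeast, rose (1.08 ± 0.09) and Atg27 (AOL_s00097g400), which works in Atg9 transport in yeast, fell (-1.85 ± 0.24). In deposited TPM 2 autophagy genes rose and 12 fell, and 6 were called with wild type as 1 library.

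Carbon metabolism held the list with the highest median. All 5 genes of the glyoxylate cycle and gluconeogenesis list rose (median 1.57), and each kept its call in deposited TPM and with wild type as 1 library. Isocitrate lyase (AOL_s00075g130), which opens the glyoxylate bypass, was at 519, 457 and 531 in the deletion libraries, against 118, 126 and 116 in wild type (2.05 ± 0.09, limma adjusted p = 1.55e-08). Malate synthase (AOL_s00112g112), the second enzyme of the bypass, was at 446, 410.4 and 479 in the deletion libraries, against 128, 122 and 127 in wild type (1.82 ± 0.12, adjusted p = 3.51e-07). Phosphoenolpyruvate carboxykinase (AOL_s00004g362), which commits oxaloacetate to sugar synthesis, was at 1190.5, 1016 and 1349, against 394, 394 and 395 in wild type (1.57 ± 0.10). Fructose-1,6-bisphosphatase (AOL_s00078g34, 0.91 ± 0.13) and acetyl-CoA synthetase (AOL_s00081g301, 1.10 ± 0.11) rose less. A gene matched to a transcription activator of gluconeogenesis, AOL_s00210g367, rose as well, with 58.8, 56.8 and 70.6 in the deletion libraries and 22.1, 22.99 and 22.2 in wild type (1.42 ± 0.08).

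Untreated, the same enzymes stood the other way round. The 5 genes had a median of -0.94 in untreated deletion against untreated wild type libraries, and all 5 were called lower there (33.1% of all tested genes were). The test of the difference between the induced and the untreated deletion effect was passed by all 5 (64.1% of all tested genes passed it), with 3.74 ± 0.13 for isocitrate lyase (limma adjusted p = 4.45e-09) and 3.26 ± 0.17 for malate synthase (adjusted p = 6.25e-08). Untreated isocitrate lyase was at 64.7 ± 8.99 in the deletion libraries, against 209 ± 1.94 in wild type.

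Enzymes next to the bypass followed it in part. In the tricarboxylic acid cycle 7 of 14 genes rose and 2 fell (median 0.16), but in deposited TPM 4 rose and 8 fell (median -0.30), so only the larger rises hold on both scales. Citrate synthase (AOL_s00079g361) was at 226, 238 and 232 in the deletion libraries, against 96.6, 100.4 and 96.9 in wild type (1.23 ± 0.08, limma adjusted p = 4.26e-07), and cytosolic malate dehydrogenase (AOL_s00215g565) rose to a like degree (1.19 ± 0.06). In glycolysis, where 5 of 13 rose and 4 fell (2 and 9 in deposited TPM, and 5 called with wild type as 1 library), the aldolase shared with gluconeogenesis (AOL_s00004g332) rose (1.04 ± 0.10). Pyruvate kinase (AOL_s00004g87), the step that gluconeogenesis bypasses, fell to 37.6, 37.8 and 31.5, against 82.3, 78.6 and 85.4 in wild type (-1.19 ± 0.10, adjusted p = 1.67e-06). Peroxisome and fatty acid oxidation genes rose in 24 of 48 cases and fell in 5 (median 0.29, 16 called with wild type as 1 library), or in 13 and 18 in deposited TPM. Both carnitine acetyltransferases, which carry acetyl units between compartments, rose: AOL_s00215g212 was at 185, 174 and 186, against 53.6, 53.6 and 53.7 in wild type (1.74 ± 0.06), and AOL_s00109g53 at 525, 495 and 539.6, against 236, 234 and 232 in wild type (1.15 ± 0.08). The peroxisomal acetate/butyrate-CoA ligase match AOL_s00081g341 was at 188, 197 and 244 in the deletion libraries and listed at 0 in all 3 wild type libraries.

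**Figure D3:**
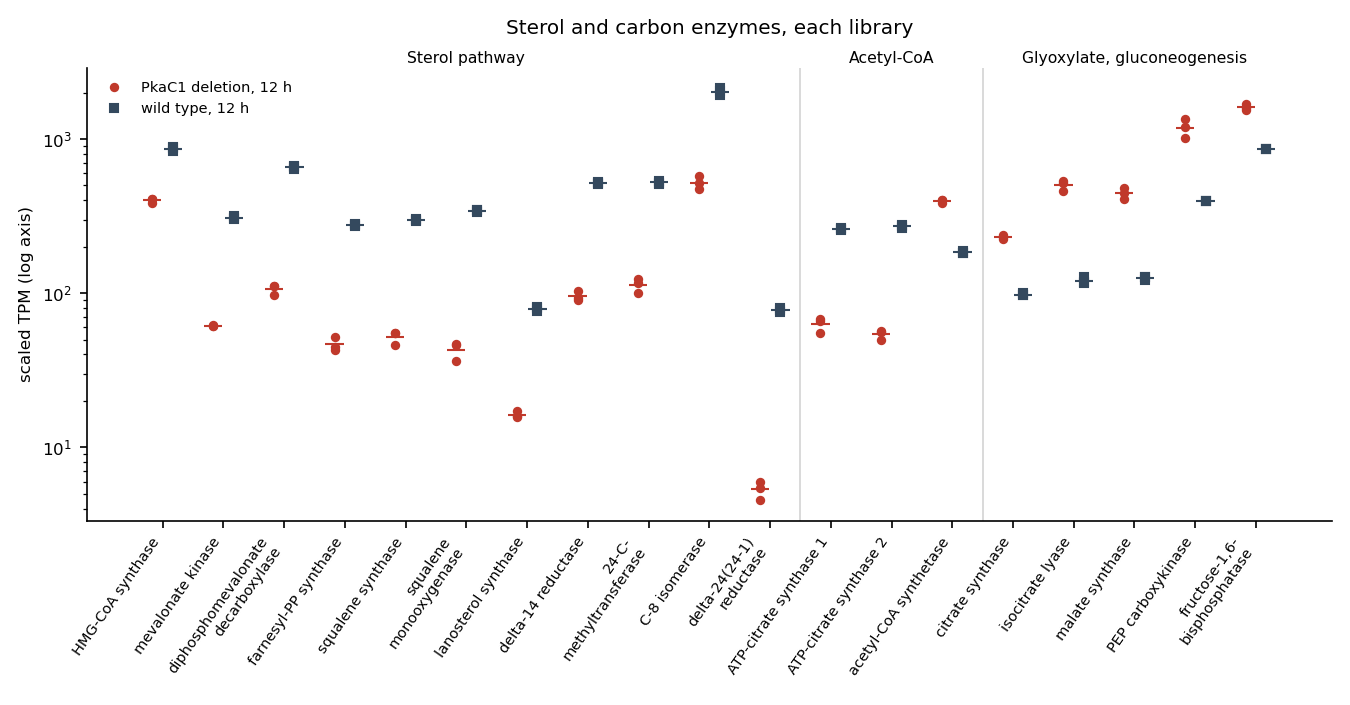
Scaled TPM (log axis) of enzymes of sterol synthesis, of acetyl-CoA supply and of the glyoxylate cycle and gluconeogenesis, each point 1 library and each line a group mean, with the 3 PkaC1 deletion libraries left of the 3 wild type libraries. The deletion libraries lie below wild type in every sterol enzyme drawn and in both ATP-citrate synthase subunits, and above it in the 6 other enzymes. The sterol enzymes drawn are the 11 of 17 list members that fell by 2-fold or more, so their common direction follows from the choice. The 2 list members that rose and the 3 that did not pass are not drawn.

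Respiratory genes fell in 27 of 54 cases and rose in 7 (median -0.19; 12, or 22.2%, were called with wild type as 1 library), and in 46 and 3 cases in deposited TPM. Those that rose included enzymes that pass electrons without pumping protons. They also included cytochrome c oxidase subunit 6A (AOL_s00079g100, 0.40) and ATP synthase subunit f (AOL_s00004g544, 0.56), of complexes that move protons. Neither of these 2 reached 2-fold. Their values in deposited TPM are not given here, and only 3 respiratory genes were called higher on that scale. The alternative oxidase (AOL_s00080g303), which takes electrons straight from ubiquinol to oxygen, was at 1207, 1198 and 1549 in the deletion libraries, against 232, 243 and 254 in wild type (2.43 ± 0.18, limma adjusted p = 6.33e-07). Succinate dehydrogenase, shared by the respiratory chain and the tricarboxylic acid cycle, rose in its cytochrome b subunit (AOL_s00054g143, 1.36 ± 0.07), its small membrane subunit (AOL_s00080g13, 0.88 ± 0.08) and its flavoprotein (AOL_s00078g245, 0.61 ± 0.05, but 0.15 and not called in deposited TPM). Its iron-sulfur subunit (AOL_s00054g737) did not pass (-0.11, limma adjusted p = 0.382). The external alternative NADH dehydrogenase (AOL_s00004g516) rose too (0.64 ± 0.12), though not in deposited TPM (0.18) nor with wild type as 1 library (adjusted p = 0.0725). Cytochrome c (AOL_s00081g186), which the alternative oxidase bypasses, was at 3022, 2863 and 3199 in the deletion libraries and 2860.1, 2853 and 2728 in wild type and did not pass the test (0.10 ± 0.08, adjusted p = 0.27; called lower in deposited TPM, -0.36). The neighbour of the alternative oxidase gene, AOL_s00080g302, a nitronate monooxygenase match, was also higher (1.41 ± 0.11).

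Sterol synthesis had the lowest median of all lists. Of 17 tested members 12 fell, 11 of them at 2-fold or more (5.55% of all tested genes), and 2 rose (0 higher and 15 lower in deposited TPM). The list took 0.136%, 0.149% and 0.124% of deposited TPM in the deletion libraries, against 0.621%, 0.625% and 0.600% in wild type. The median was -2.20, or -2.64 in deposited TPM, and 12 members were called with wild type as 1 library. Ergosterol, the end product, is the main sterol of fungal membranes.

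Enzymes that fell stood at early, middle and late steps of the pathway, though not at every step. Mevalonate kinase (AOL_s00076g74) was at 60.96, 62.2 and 60.9 in the deletion libraries, against 315, 302 and 305 in wild type (-2.30 ± 0.05, limma adjusted p = 6.49e-11). Diphosphomevalonate decarboxylase (AOL_s00188g39), 2 steps further on, was at 111, 112 and 97.1, against 667, 655 and 642 in wild type (-2.61 ± 0.06). Farnesyl pyrophosphate synthase (AOL_s00007g422), whose product also serves protein prenylation and terpenes, was at 44.97, 52.1 and 42.9, against 276, 279.6 and 271 in wild type (-2.54 ± 0.11). These 3 genes and HMG-CoA synthase above them (AOL_s00043g628, -1.11 ± 0.06) showed no overlap between the groups. The 2 members that rose were HMG-CoA lyase (AOL_s00081g296, 0.31, but -0.15 in deposited TPM, adjusted p = 0.229 with wild type as 1 library, and adjusted p = 0.0517 and 0.0553 without wild type replicate 1 or 2), which breaks HMG-CoA down, and phosphomevalonate kinase. That kinase (AOL_s00006g311), between mevalonate kinase and the decarboxylase, was at 163, 157 and 148 in the deletion libraries, against 111, 112 and 114 in wild type (0.47 ± 0.11, but 0.01 in deposited TPM and adjusted p = 0.141 with wild type as 1 library).

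Among the enzymes that build the sterol ring, squalene synthase (AOL_s00004g98) was at 55.1, 55.3 and 46.2 in the deletion libraries, against 298, 293 and 301 in wild type (-2.49 ± 0.09). Squalene monooxygenase (AOL_s00078g347), the target of allylamine antifungals, was at 45.8, 46.97 and 36.2, against 347, 346 and 337 in wild type (-2.98 ± 0.09, limma adjusted p = 8.87e-10). Lanosterol synthase (AOL_s00054g195), which closes the rings, fell by a like amount (-2.21 ± 0.06). Of the late steps, the delta-14 reductase (AOL_s00076g692, -2.43 ± 0.07), sterol 24-C-methyltransferase (AOL_s00043g26, -2.20 ± 0.10) and C-8 isomerase (AOL_s00097g539, -1.96 ± 0.08) all fell. The isomerase was the most abundant of the list, at 518, 571 and 474 in the deletion libraries, against 2044, 2129 and 1926 in wild type. The last enzyme of the pathway, delta-24(24-1) reductase (AOL_s00006g559), had the largest fall, with 4.56, 5.44 and 5.99 in the deletion libraries and 77.4, 80.05 and 75.6 in wild type (-3.64 ± 0.12, adjusted p = 1.85e-09); a second gene with this match, AOL_s00169g16, fell less (-0.97 ± 0.06). The 3 members that did not pass were the ergosterol protein 28 match AOL_s00215g406 (-0.04) and the delta-24 reductase matches AOL_s00075g166 (-0.08) and AOL_s00083g247 (-0.15), all called lower in deposited TPM (-0.48, -0.53 and -0.54). Sterol 5(6)-desaturase (AOL_s00076g338), listed with fatty acid synthesis, fell less (-0.69 ± 0.16, adjusted p = 0.138 with wild type as 1 library). Cytochrome P450 61 (AOL_s00109g44), which desaturates the sterol side chain and was counted with the P450 genes, fell as well (-2.46 ± 0.18).

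This fall was not seen before induction to the same degree. Untreated, the list had a median of -0.12, with 3 members higher and 7 lower, and the difference between the induced and untreated effects was called for 16 of 17 members (64.1% of all tested genes). For squalene synthase the untreated value was -0.04 (limma adjusted p = 0.7) and the difference -2.45 ± 0.12 (adjusted p = 4.37e-08). For mevalonate kinase the untreated value was already -1.97 and the difference -0.34 ± 0.07 (adjusted p = 0.00108). Both subunits of ATP-citrate synthase, which makes cytosolic acetyl-CoA for lipids, fell with the sterol enzymes: AOL_s00173g18 was at 65.97, 67.9 and 55.1 in the deletion libraries, against 266, 259 and 260.4 in wild type (-2.04 ± 0.10), and AOL_s00173g19 changed by -2.31 ± 0.08. The fatty acid synthase subunit alpha (AOL_s00043g117) did not pass (-0.17, limma adjusted p = 0.212), though it was called lower in deposited TPM (-0.58).

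Several of the genes with the largest falls lay side by side. AOL_s00215g273 to AOL_s00215g277 and AOL_s00215g279 to AOL_s00215g283 were the only runs of 4 or more neighbours, in locus order, that were all at least 2-fold lower, while 12 such runs were higher. Most of their Swiss-Prot matches are enzymes of the yanuthone pathway of Aspergillus niger, in which a polyketide made from 6-methylsalicylic acid is joined to a farnesyl chain. In A. oligospora the synthase of this region is known for its part in making arthrosporols.

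The polyketide synthase itself, 6-methylsalicylic acid synthase (AOL_s00215g283), was at 3.36, 3.52 and 2.96 in the deletion libraries, against 160.2, 167 and 159 in wild type (-5.25 ± 0.09, limma adjusted p = 3.35e-11). The 6-methylsalicylic acid decarboxylase (AOL_s00215g281), which acts next, was at 4.10, 6.60 and 2.73, against 293, 295 and 293 in wild type (-5.81 ± 0.19). The polyprenyl transferase (AOL_s00215g276), which attaches the farnesyl chain in Aspergillus, was at 6.43, 5.82 and 2.32, against 609.7, 630.2 and 603 in wild type (-6.80 ± 0.29). In these 3 genes every deletion library was far below the lowest wild type library. The P450 genes AOL_s00215g280 and AOL_s00215g282, whose Aspergillus counterparts act in the same pathway, changed by -5.98 ± 0.11 and -5.79 ± 0.13, and the oxidoreductase AOL_s00215g277, the most abundant of the lower genes, by -5.75 ± 0.12.

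A gene in the middle went the other way. The P450 AOL_s00215g278, between both runs, was at 8505, 8134 and 9693 in the deletion libraries, against 2151, 2290.4 and 2298 in wild type (1.96 ± 0.19, limma adjusted p = 7.34e-06), and was the most abundant gene of the region in both strains. Untreated it did not pass (-0.11, adjusted p = 0.632), whereas its lower neighbours were also lower untreated, for example -5.63 for the synthase and -5.44 for AOL_s00215g277. The fall of these genes was therefore present before induction, and for the synthase the difference between both effects was small (0.38 ± 0.12).

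**Figure D4:**
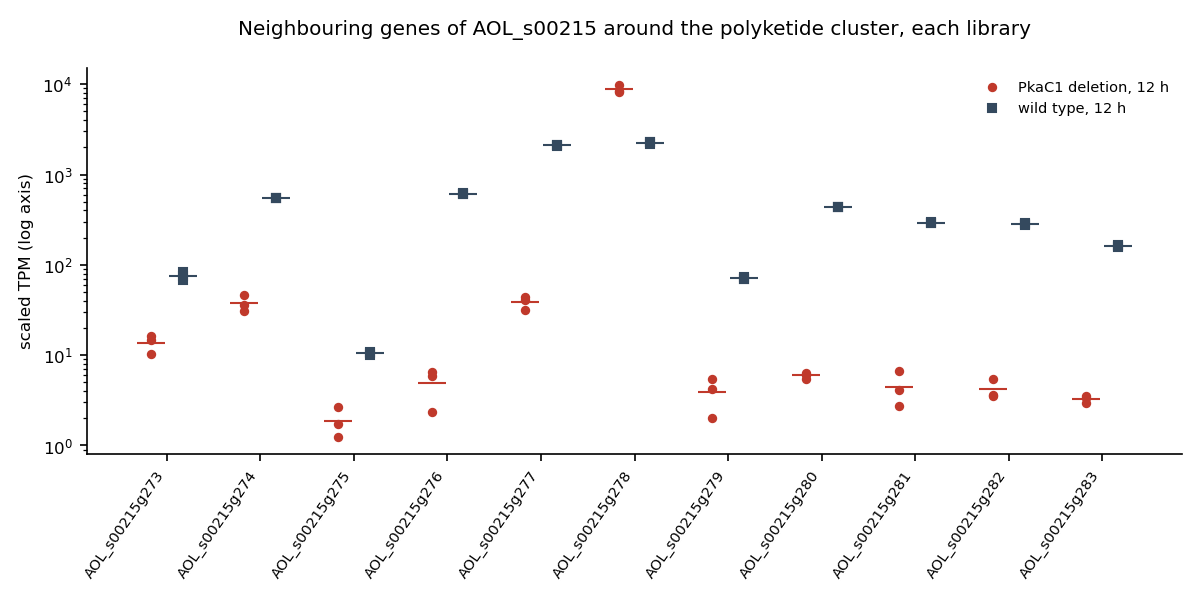
Scaled TPM (log axis) of AOL_s00215g273 to AOL_s00215g283 in locus order, each point 1 library and each line a group mean, with the 3 PkaC1 deletion libraries left of the 3 wild type libraries. In 10 genes all deletion libraries lie below wild type, and in AOL_s00215g278 they lie above it.

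Of all 24 tested P450 genes 11 rose and 7 fell (9 and 9 in deposited TPM). Outside the region 10 of 21 rose and 5 fell (8 and 7 in deposited TPM). AOL_s00097g277 was at 191, 182 and 244 in the deletion libraries, against 21.1, 20.2 and 19.5 in wild type (3.27 ± 0.16, limma adjusted p = 2.50e-08), although its Swiss-Prot match is the same as that of AOL_s00215g280 in the lower run. Among the lower P450 genes outside the region, besides Cytochrome P450 61 named above with the sterol enzymes, were AOL_s00210g299 (-2.55 ± 0.10) and AOL_s00079g255 (-2.31 ± 0.11).

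In scaled TPM, genes for secreted enzymes and surface proteins rose more often than they fell. Of 40 tested secreted peptidases 19 rose and 7 fell (median 0.44; 17 were called with wild type as 1 library), or 16 and 11 in deposited TPM. A tripeptidyl aminopeptidase (AOL_s00110g236) was at 172, 152 and 176 in the deletion libraries, against 8.98, 9.87 and 8.07 in wild type (4.07 ± 0.15, limma adjusted p = 3.46e-09). The sedolisin sed3 (AOL_s00054g268), an acid tripeptidyl peptidase in Aspergillus, was at 23.8, 24.9 and 26.3, against 1.61, 1.71 and 1.39 in wild type (3.34 ± 0.19), and the aspartic protease aspergillopepsin-1 (AOL_s00054g264) rose too (2.05 ± 0.14). The cuticle-degrading serine protease AOL_s00076g4, of a class known for digesting nematode cuticle, was low in both strains, with 1.92, 5.07 and 3.66 in the deletion libraries and 0.802, 1.09 and 0.688 in wild type (1.23 ± 0.31, adjusted p = 0.00465, and 0.141 with wild type as 1 library).

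Chitinases and glucanases rose in 23 of 53 cases and fell in 10 (median 0.30; 20 were called with wild type as 1 library), or in 13 and 18 in deposited TPM. Endochitinase 2 (AOL_s00079g59), which cuts chitin of fungal walls, had the largest value, at 281, 279.6 and 299.9 in the deletion libraries, against 14.2, 11.97 and 12.97 in wild type (4.36 ± 0.09, limma adjusted p = 6.69e-11). The beta-glucosidase btgE match AOL_s00078g60, an abundant wall enzyme, rose (2.37 ± 0.07), and beta-glucosidase B (AOL_s00083g367) fell (-1.46 ± 0.12). The synthases that lay down chitin and glucan were even, with 5 of 12 higher and 5 lower (1 and 9 in deposited TPM, and 3 called with wild type as 1 library).

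Surface and adhesion proteins rose in 25 of 52 cases, 17 of them at 2-fold or more, and fell in 13 (median 0.36), or in 20 and 21 in deposited TPM. The GPI-anchored CFEM protein AOL_s00215g434, of a cysteine-rich fungal family, was the most abundant of those that rose, with 2532, 2796 and 2584 in the deletion libraries and 547, 529 and 527 in wild type (2.30 ± 0.12, limma adjusted p = 4.04e-08). A second CFEM protein, AOL_s00076g567, was at 104, 85.2 and 93.5 in the deletion libraries, against 6.74, 7.47 and 7.30 in wild type (3.54 ± 0.10). The WSC-domain proteins AOL_s00043g388 and AOL_s00080g412, of a family that senses or binds the cell wall, rose by 3.33 ± 0.15 and 2.84 ± 0.13. Sugar-binding proteins did not move as one: the fucose-specific lectin AOL_s00173g391 rose (2.59 ± 0.25) and the Agaricus bisporus-type lectin AOL_s00080g288 fell (-0.60 ± 0.11, adjusted p = 0.0553 with wild type as 1 library). The agglutinin-1 match AOL_s00078g308, outside the list, was at 36.3, 30.98 and 36.7 in the deletion libraries, against 0.604, 0 and 0.698 in wild type (4.67 ± 0.20).

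Uptake genes, too, rose more often than they fell. Sugar transporters rose in 10 of 17 cases, 8 of them at 2-fold or more, and fell in 3 (median 0.78; 9 and 5 in deposited TPM). The STL1-type transporter AOL_s00140g74, a glycerol symporter in yeast, was at 24.5, 25.05 and 30.4 in the deletion libraries, against 1.21, 0.94 and 0.635 in wild type (3.85 ± 0.15, limma adjusted p = 6.03e-09). The glucose transporter ght2 match AOL_s00081g27 was at 89.7, 92.7 and 98.7, against 14.01, 13.8 and 14.5 in wild type (2.65 ± 0.15), while untreated it was lower in the deletion (-1.56). Amino acid and peptide transporters rose in 13 of 25 cases, 10 of them at 2-fold or more, and fell in 2 (median 0.56; 11 and 6 in deposited TPM). The peptide transporter ptr2 match AOL_s00215g902, the most abundant, was at 378, 427 and 358 in the deletion libraries, against 99.3, 106 and 97.5 in wild type (1.93 ± 0.13). The general amino acid permease GAP1 (AOL_s00170g65) rose to 70.4, 68.2 and 95.3, against 28.7, 26.3 and 26.5 in wild type (1.47 ± 0.11), and untreated it was lower in the deletion (-3.13, adjusted p = 1.84e-09).

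Genes of nitrogen use stood near the shares of all tested genes, with 5 of 18 higher (27.8%) and 6 lower (33.3%), or 3 and 11 in deposited TPM, and 5 called with wild type as 1 library. Uricase (AOL_s00097g623) and allantoicase (AOL_s00117g45), which degrade purines, rose (1.61 ± 0.12 and 0.84 ± 0.13), and nitrate reductase (AOL_s00210g163), which opens nitrate use, fell (-1.51 ± 0.08). Arginine synthesis had 8 of 13 genes lower and 4 higher (median -0.57), or 9 and 2 in deposited TPM. Argininosuccinate lyase AOL_s00215g119, the last step to arginine, was listed at 0 in all 3 deletion libraries and at 96.3, 106 and 88.4 in wild type. A second lyase gene, AOL_s00117g52, was at 46.8, 48.7 and 38.8 in the deletion libraries, against 124, 128 and 131 in wild type (-1.50 ± 0.09, limma adjusted p = 1.78e-07). Argininosuccinate synthase (AOL_s00076g641), the step before, rose (0.71 ± 0.06).

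Regulators of spore formation were split, with 31.25% of tested members higher and 31.25% lower, near the 31.8% and 32.1% of all tested genes. The brlA and abaA matches were among those that rose. Members that fell are not named here, and the lowest value of the list was -0.67. Of 16 tested members 5 rose, 4 of them at 2-fold or more, and 5 fell (4 and 9 in deposited TPM, and 6 called with wild type as 1 library). The match to brlA (AOL_s00097g514), which starts conidiophore development in Aspergillus, was at 4.30, 3.73 and 5.87 in the deletion libraries, against 0.469, 0.605 and 0.354 in wild type (1.92 ± 0.15, limma adjusted p = 1.16e-06). The abaA match (AOL_s00080g63), which acts after brlA in Aspergillus, was at 213, 184 and 297, against 69.8, 69.6 and 68.5 in wild type (1.69 ± 0.19). The wetA match (AOL_s00173g221), the last of the 3, did not pass (0.03, adjusted p = 0.833; called lower in deposited TPM, -0.32). Conidiation-specific protein 13 (AOL_s00081g178), a spore-stage marker in Neurospora, was at 60.7, 86.8 and 50.7 in the deletion libraries, against 0.0729, 0.887 and 0 in wild type (5.69 ± 0.34). For the 3 named genes that rose the groups did not overlap, although brlA was low throughout.

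Enzymes of melanin and reactive oxygen rose in 10 of 13 cases, 6 of them at 2-fold or more, and fell in 2 (median 0.98; 7 and 3 in deposited TPM, and 8 called with wild type as 1 library). The neighbouring tyrosinases AOL_s00083g37 and AOL_s00083g38, which oxidise phenols to pigment precursors, were at 58.9, 54.9 and 58.1 and at 64.3, 53.5 and 57.7 in the deletion libraries, against 10.7, 9.29 and 9.76 and 10.3, 8.07 and 9.83 in wild type. Their log2 fold changes were 2.42 ± 0.08 and 2.52 ± 0.11 (limma adjusted p = 2.12e-09 and 1.07e-08). Another, AOL_s00054g968, rose to a like degree (2.001 ± 0.10), and NADPH oxidase 1 (AOL_s00193g69), which makes superoxide for signalling, by less (0.41 ± 0.06, but -0.05 and not called in deposited TPM). Antioxidant enzymes had 28 of 61 higher and 11 lower (median 0.21; 21 called with wild type as 1 library), or 20 and 28 in deposited TPM. The glutathione S-transferase match AOL_s00083g35 rose (2.12 ± 0.07). The mitochondrial peroxiredoxin PRX1 (AOL_s00215g326) fell to 178, 199 and 156, against 702, 703 and 669 in wild type (-1.96 ± 0.14, adjusted p = 4.39e-07), and manganese superoxide dismutase (AOL_s00007g292) fell as well (-0.995 ± 0.13).

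Septin, actin and microtubule genes fell in 27 of 54 cases and rose in 9 (median -0.23; 19 called with wild type as 1 library), or in 39 and 4 in deposited TPM, with a myosin-1 match (AOL_s00117g21, 2.28 ± 0.10) and septin spn3 (AOL_s00112g7, 1.32 ± 0.14) among those that rose. MAP kinases rose in 4 of 11 cases and fell in 5 (2 and 8 in deposited TPM, and 4 called with wild type as 1 library); Pbs2 (AOL_s00097g443), the kinase above Hog1 in osmotic signalling in yeast, fell (-1.11 ± 0.12). Of 107 Zn2Cys6 transcription factors 38 rose and 27 fell (20 and 57 in deposited TPM; 32 called with wild type as 1 library). The largest change among them, AOL_s00078g224, was at 21.9, 13.5 and 16.3 in the deletion libraries, against 1.48, 0 and 2.82 in wild type (3.08 ± 0.50). Trehalose and glycogen genes rose in 4 of 11 cases and fell in 4, or in 2 and 6 in deposited TPM, and 4 were called with wild type as 1 library. Trehalose phosphorylase (AOL_s00097g268) rose (1.11 ± 0.11) and neutral trehalase (AOL_s00075g83), which splits trehalose, fell (-0.86 ± 0.11).

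Some genes were listed at 0 in 1 strain. At a mean of 10 or more in the other strain, 22 genes were listed at 0 in all 3 deletion libraries and 14 in all 3 wild type libraries. A 0 in TPM can be a failed estimate, and whether these are was not tested. The 51 kDa subunit of complex I (AOL_s00054g688) was at 30.7, 27.6 and 31.7 in wild type and listed at 0 in the deletion libraries. Listed at 0 in the same way were dynamitin (AOL_s00078g61, 52.9, 50.7 and 54.2 in wild type), a subunit of the dynein activator, and AOL_s00078g210, with no annotation (95.1, 95.7 and 90.4 in wild type). Listed at 0 in wild type were the aspartate-semialdehyde dehydrogenase AOL_s00079g68 (266, 286 and 355 in the deletion libraries) and the PRY1 match AOL_s00215g206 (125, 158 and 129.8), a secreted sterol-binding protein in yeast. No fold is given for these genes. Among genes above 0 in both strains, the GPI-anchored cupredoxin AOL_s00097g587 had the largest rise by the rule used to name genes, with 329, 312 and 391 in the deletion libraries and 2.77, 3.73 and 6.81 in wild type (6.05 ± 0.21, limma adjusted p = 2.38e-09).

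The deletion effect after induction matched the effect seen untreated only in part. Across the 8977 genes, which are not independent replicates, induced and untreated log2 fold changes had a Pearson r of 0.21. Of the 1261 genes at least 2-fold higher after induction, 550 were also called higher untreated (29.7% of all tested genes were) and 329 lower (33.1%). Of the 498 at least 2-fold lower, 240 were also called lower untreated and 65 higher. Both sets were chosen by the induced effect, which is itself part of the difference between the effects. A share above that of all tested genes is therefore built in for these sets. The difference between the effects was called for 1028 of the 1261 and 383 of the 498, beside 64.1% of all tested genes; with wild type as 1 library 2772 of all tested genes were called for it, against 5751 with 3 wild type libraries. The untreated deletion libraries were the most variable of the 4 groups. Their median coefficient of variation was 16.8% among genes at 1000 TPM or more, against 6.03% in the induced deletion libraries and 1.63% in untreated wild type.

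**Figure D5:**
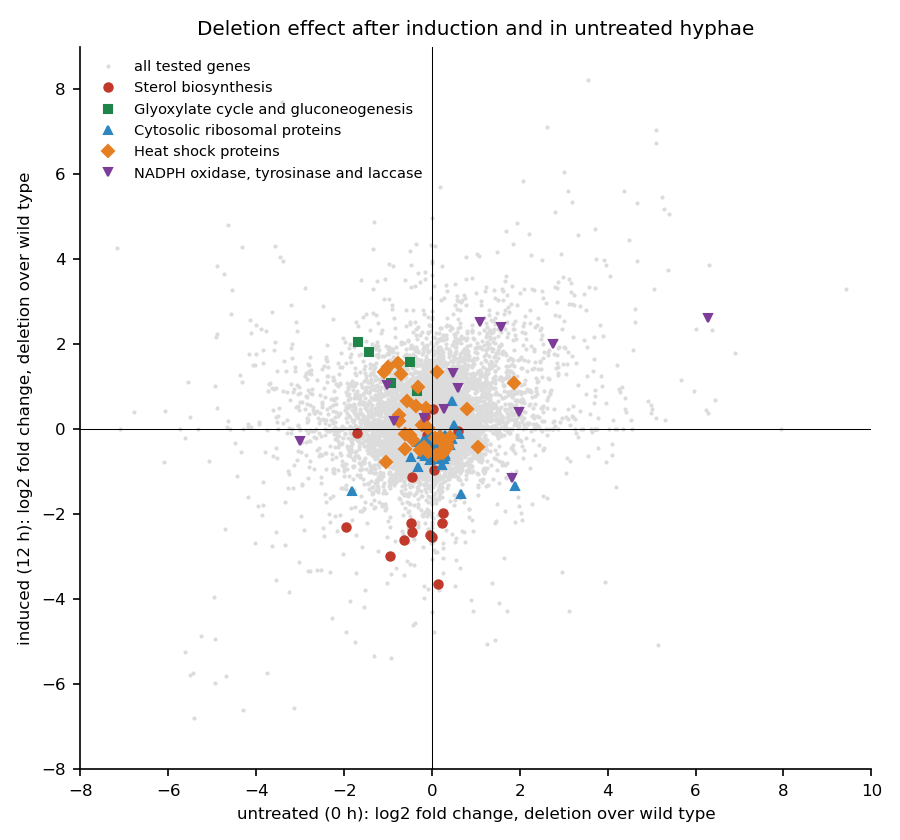
Log2 fold change of the PkaC1 deletion over wild type after 12 h of induction (vertical) and untreated (horizontal), each point 1 of the 8977 tested genes, with 5 lists coloured. The glyoxylate genes lie upper left (higher induced, lower untreated), and most sterol genes lie below 0 on the vertical axis and near 0 on the horizontal one.

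The reversal was largest, among genes above 0 in all 4 groups, in the glucose-repressible gene match AOL_s00004g152, a transcript that glucose represses in Neurospora. It was at 951, 855 and 1251 in the induced deletion libraries, against 63.04, 40.9 and 49.8 in induced wild type (4.29 ± 0.30), and at 80.1 ± 34.1 in the untreated deletion libraries, against 1511 ± 64.6 in untreated wild type (-4.33). The difference between both effects was 8.62 ± 0.43 (limma adjusted p = 3.70e-08). In the other direction, the NmrA-like gene AOL_s00215g876, of a family of redox-sensing regulators, was at 13.9, 16.9 and 16.1 in the induced deletion libraries, against 203, 194 and 199 in induced wild type (-3.59 ± 0.13). Untreated it was at 87.1 ± 16.1 in the deletion libraries, against 4.74 ± 0.773 in wild type (3.93), a difference of -7.52 ± 0.19. Cytosolic ribosomal proteins, lower after induction, had a median of 0.14 untreated, with 19 higher and 6 lower, and the difference was called for 62 of 78.

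In the induced deletion of AoAcy (adenylate cyclase, which makes the cAMP that PKA senses), fitted against its own wild type in a separate table, the same genes took other values. No test was made across both tables. Of the 1229 genes at least 2-fold higher here that were tested there, 352 were called higher and 380 lower, beside 21.2% and 29.9% of all 9617 genes tested there. Of the 483 at least 2-fold lower here, 201 were called lower there and 59 higher. All 11 genes of the polyketide region were called lower in the Acy deletion, with -1.15 for 6-methylsalicylic acid synthase (limma adjusted p = 0.00102) and -2.50 for AOL_s00215g277, and so was the P450 AOL_s00215g278 (-2.17), which rose in the PkaC1 deletion. ATP-citrate synthase was also lower in both (-1.98 and -1.999 there). The sterol list had a median of -0.19 there, with 3 of 17 called higher and 7 lower, and squalene synthase did not pass (0.02, adjusted p = 0.934). All 5 glyoxylate and gluconeogenesis genes were called lower there, with -1.64 for isocitrate lyase, and the alternative oxidase was lower (-1.40).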

How the data were processed

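RNA-seq libraries of total RNA from hyphae (3 per group, 24 in all) were deposited as 2 tables, 1 per deletion strain with its own wild type. TPM per gene were made by the authors from mapped reads; HISAT2 and StringTie are named without versions in the submitters' processing notes, and the genome build is not given in the sources used here. Log2 fold changes and adjusted p-values of the authors' deposited comparison table served only to compare signs. The coding length column of the deposited tables entered no test, and 8 columns of group means were not used.

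In the PkaC1 table, 8977 of 11479 annotated genes reached 1 TPM in 3 or more of 12 libraries and were tested, and 1568 assembled loci without a gene name were left out. Libraries were scaled to a common median of 20.2 TPM. Limma 3.58.1 (R 4.3.3) with a mean-variance trend was fitted to log2(scaled TPM + 1) with 4 group means, and p-values were adjusted by Benjamini-Hochberg over all tested genes, with a threshold of 0.05. The Acy table (9617 tested genes) was fitted separately in the same way. Tables were handled with Python 3.11.15, pandas 2.3.3 and numpy 2.4.6, figures with matplotlib 3.10.9, and the fit was tested on simulated data. TPM hold no read depth, so precision was judged from the spread over 3 libraries alone.

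Gene lists were made from the deposited Swiss-Prot and Pfam names. The members and lists were chosen with earlier results of these data known. Genes were named by rule: the cAMP pathway, G alpha and Ras genes, the largest called changes at a mean of 10 scaled TPM or more with no overlap, a few members of each list, the polyketide region, genes listed at 0 in 1 strain, the most abundant genes and the largest differences between effects. Some further genes, among them other sterol, respiratory and tyrosinase genes, were picked with their values already seen. The alternatives tried were deposited TPM without scaling, other scalings, a pseudocount of 0.1, other filters, a replicate block, robust moderation, only the compared groups, wild type as 1 library and each library left out.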

Additional observations from a re-analysis of the deposited data

Results flagged for a closer look

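In these genes the deletion effect was called in opposite directions after induction and untreated, and limma's test of the difference between both effects gave a value of 3 or more in size on the log2 scale. Each value is the induced effect minus the untreated one, and the cause of the differences was not tested. All are genes already named above, and they are no full count over the tested genes.

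Higher after induction and lower untreated were the glucose-repressible gene match AOL_s00004g152 (8.62, limma adjusted p = 3.70e-08), the general amino acid permease AOL_s00170g65 (4.60) and the glucose transporter match AOL_s00081g27 (4.21). The same held for the peptidase sed3 AOL_s00054g268 (3.83), isocitrate lyase AOL_s00075g130 (3.74), the carnitine acetyltransferase AOL_s00215g212 (3.40) and malate synthase AOL_s00112g112 (3.26). The cuticle-degrading protease AOL_s00076g4 (3.48), the RNA polymerase I subunit AOL_s00117g6 (3.20) and uricase AOL_s00097g623 (3.18) had the same directions.

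Lower after induction and higher untreated were the NmrA-like gene AOL_s00215g876 (-7.52, limma adjusted p = 5.79e-10), the peroxiredoxin AOL_s00215g326 (-3.99) and the ribosomal ubiquitin fusion AOL_s00075g220 (-3.24).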

How the results depend on the processing

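The scaling of libraries and the spread of the wild type libraries moved the counts; the remaining alternatives left each count within 1.5 times its reported value. In deposited TPM 1697 genes were higher and 4671 lower, and 731 and 1407 of them changed by 2-fold or more. With wild type as 1 library per group 2950 genes were called (1651 higher and 1299 lower) and 2772 for the difference between effects. Leaving out each induced library in turn gave 5179 to 5573 called genes. Replicate numbers did not pair the samples (same-numbered libraries of different groups correlated at -0.09 to 0.08 in their deviations), and a replicate block gave 5671 called genes and changed no named call.

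Among the 153 named genes that were checked, values turned sign in deposited TPM in AOL_s00078g405 (-0.048), AOL_s00083g160 (-0.17), AOL_s00081g296 (-0.15), AOL_s00081g186 (-0.36), AOL_s00007g534 (-0.25), AOL_s00173g221 (-0.32) and AOL_s00193g69 (-0.0455). The respiratory genes AOL_s00079g100, AOL_s00004g544 and AOL_s00054g737 were not among those checked. With libraries left out, AOL_s00173g221 ranged from -0.0506 to 0.108, turning without deletion replicate 3, and AOL_s00215g406 from -0.0767 to 0.0263, turning without deletion replicate 2. List medians turned in deposited TPM for the tricarboxylic acid cycle (-0.30), peroxisome (-0.15), antioxidant (-0.18), conidiation (-0.29), chitinase (-0.10) and Zn2Cys6 (-0.34) lists, where the median of all genes shifted to -0.39. With libraries left out, the median ranged over 0 for G proteins and Ras (-0.21 to 0.18), autophagy (-0.17 to 0.0761) and glycolysis (-0.0397 to 0.0091), which turned without deletion replicate 1. It also did for conidiation (-0.0215 to 0.0925), which turned without deletion replicate 3, and for chitin synthases (-0.0251 to 0.0087), which turned without deletion replicate 2 or wild type replicate 3. The causes were not tested. The planned search of promoters for motifs was not run, since no promoter sequences were used here. Depth is unknown from TPM, so low genes could not be judged by counting error.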

Other observations

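Genes at least 2-fold higher in the induced deletion libraries also lay side by side. In locus order 12 runs of 4 or 5 neighbours were all called higher at 2-fold or more. AOL_s00215g870 to AOL_s00215g873 had the highest median (2.56) and hold matches to a carboxylic acid transporter and a quinate permease, AOL_s00215g872, at 249, 275 and 283 in the deletion libraries, against 23.5, 22.9 and 22.9 in wild type (3.48 ± 0.13, limma adjusted p = 3.64e-09). AOL_s00210g366 to AOL_s00210g370 join the match to a transcription activator of gluconeogenesis with an efflux pump match and a tyrosinase, AOL_s00210g370, at 118, 130.3 and 123 in the deletion libraries, against 52.5, 48.7 and 46.4 in wild type (1.32 ± 0.15). AOL_s00080g301 to AOL_s00080g305 hold the alternative oxidase, but the calls of 3 of these 5 genes (AOL_s00080g301, AOL_s00080g304 and AOL_s00080g305) ended with wild type as 1 library (adjusted p = 0.061, 0.206 and 0.0613). That of AOL_s00080g304, which was low, also ended in deposited TPM (0.97), with a pseudocount of 0.1, with only the compared groups, and without deletion replicate 1, deletion replicate 3 or wild type replicate 2 (adjusted p = 0.0739 to 0.0799). How many such runs chance gives was not tested.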
